A study of Mus musculus with 5 samples.

Results

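The Pax genes are a family of 9 transcription factor genes, Pax1 to Pax9, and their RNA was measured in induced hepatic progenitor cells, fetal liver hepatic progenitor cells and a neural progenitor line of the mouse. The members were taken as every non-control probe whose gene name, or the current symbol of its accession, is Pax1 to Pax9. This gave 15 probes in 51 spots, out of 41174 probes and 28786 gene names in all. A further Pax1 probe and a further Pax7 probe, so named in their descriptions alone, were not taken. All 9 genes had at least 1 probe.

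The data are 5 one-colour microarrays, each of the RNA of 1 cell line or culture. The induced hepatic progenitor cells (iHPC, 2 arrays) were made from the neural progenitor line NSBAg2 with pMXs retroviral vectors for 9 transcription factors (iHPC 9F) or 10 (iHPC 10F), received G418 3 weeks after infection and were harvested 1 week later. The labels do not name the vectors' factors. The fetal liver hepatic progenitor cells (HPC, 2 arrays) are the lines HB1, from a C57BL6J mouse, and HNG2, from STOCK Tg(Nanog-GFP, Puro)1 Yam, both taken at E13.5. The neural progenitor cells (NPC, 1 array) are NSBAg2 itself, which was derived from the embryonic stem cell line BAg73C2. That line carries a beta-geo cassette in the Afp gene, so the iHPC carry it too and G418 kept cells that transcribed Afp. The 2 arrays of a group are different lines or different factor sets, so the p-values below measure the spread between those, and the NPC array has no replicate.

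Pax proteins bind DNA through the paired domain for which the family is named, and some carry a second DNA-binding region, a homeodomain. They fall into 4 paralogy groups, Pax1 with Pax9, Pax2 with Pax5 and Pax8, Pax3 with Pax7, and Pax4 with Pax6. In the embryo, Pax3, Pax6 and Pax7 pattern the neural tube, Pax3 and Pax7 also mark muscle precursors and neural crest, Pax2 and Pax8 act in the kidney, Pax5 in B cells, Pax4 in the pancreatic islet, and Pax1 and Pax9 in the sclerotome.

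The member on which most of the results turn is Pax6, a factor of the dorsal forebrain, eye and islet, and RefSeq (GRCm38.p6) gives 2 start sites for it on the plus strand of chromosome 2. The 250 bases before each are shown because Pax6 was the 1 family member that differed in all 3 comparisons, with motif matches in capitals.
Pax6 promoter 1, chr2:105668646-105668895: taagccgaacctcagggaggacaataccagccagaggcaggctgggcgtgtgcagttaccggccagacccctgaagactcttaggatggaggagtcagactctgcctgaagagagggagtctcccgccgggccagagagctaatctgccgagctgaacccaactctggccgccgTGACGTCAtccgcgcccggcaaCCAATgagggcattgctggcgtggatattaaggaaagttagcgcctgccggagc
Pax6 promoter 2, chr2:105682213-105682462: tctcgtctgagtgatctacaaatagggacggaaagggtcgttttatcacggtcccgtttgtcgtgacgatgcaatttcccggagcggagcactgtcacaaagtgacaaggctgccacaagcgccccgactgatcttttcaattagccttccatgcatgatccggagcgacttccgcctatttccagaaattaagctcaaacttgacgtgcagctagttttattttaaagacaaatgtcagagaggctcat
The first holds the cAMP response element TGACGTCA, which 1.55% of 32851 promoters of the same length hold on either strand, and a CCAAT box, which 33.8% hold. The second holds neither, and has 1 E-box (CANNTG, left in lower case), which 66.2% of promoters hold. The homeodomain core TAATTA (4.84% of promoters), the paired-type homeodomain dimer with a 3-base spacer (0.463%), the Sox motif ACAATG (10.69%) and TATAAA (12.4%) had no match on either strand in either window. The arrays do not tell which start site was used.

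Of the 9 genes, 5 were well above background on at least 1 array and 4 on none. A level here is the log2 signal relative to the 75th percentile of its array, and well above background is the scanner software's own call. Pax3, Pax6 and Pax9 were well above background on all 5 arrays. Pax2 was so on both HPC arrays and on no other, and Pax7 on HPC HB1 and on NPC. In 3 of the 4 paralogy groups there was thus 1 gene measured on all arrays. The other group was that of Pax2, Pax5 and Pax8. By group, 3 genes were well above background on every array in iHPC, 4 in HPC and 4 in NPC.

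**Figure D1:**
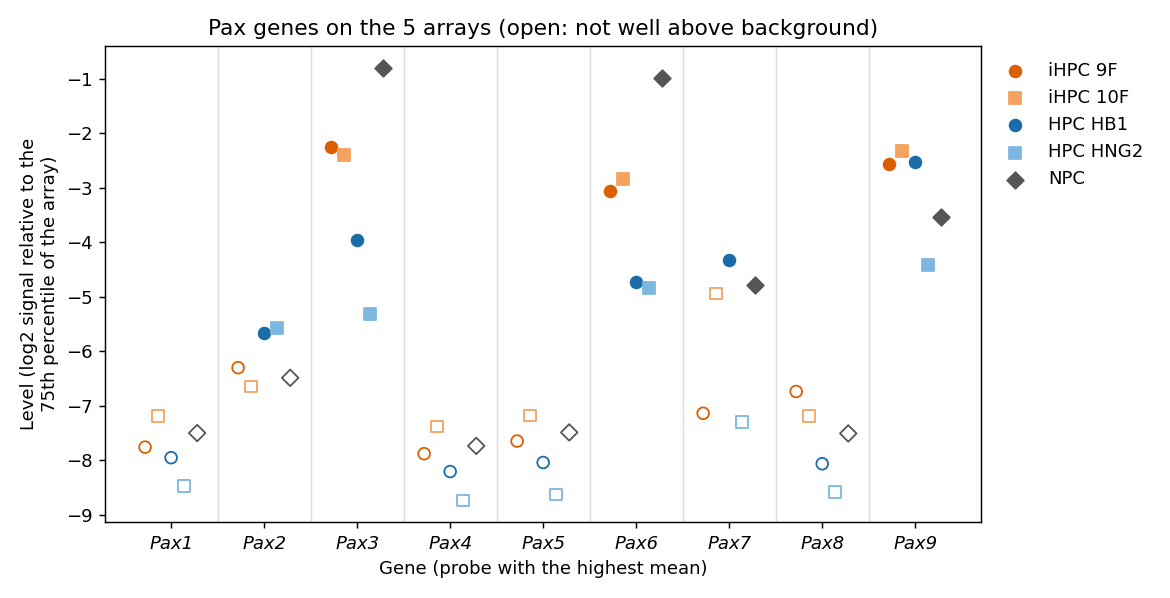
Levels of the 9 Pax genes on the 5 arrays (vertical axis, log2 signal relative to the 75th percentile of the array), each gene by its probe with the highest mean. Filled symbols are well above background and open ones are not. Heights of different genes come from different probes and do not rank the genes. For Pax3 and Pax6 the iHPC arrays lie above HPC and below NPC with no overlap, and Pax1, Pax4, Pax5 and Pax8 have open symbols on every array.

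Before the tests, the labels were set against marker genes. All 10 hepatic progenitor markers, among them Alb, Afp and Krt8, were well above background on every iHPC and every HPC array, and 4 of 10 on the NPC array. In iHPC the G418 selection kept cells that transcribed Afp, so Afp is no check of the label there. Of 10 neural progenitor markers, 7 were well above background on both iHPC arrays, 5 on both HPC arrays and 8 on the NPC array. The NPC array had Sox2, Nes and Fabp7 but lacked Hes5 and Olig2. That array also had all 8 mesenchymal markers, including Col1a2, Col3a1 and Twist1, against 5 of 8 on both iHPC arrays and 3 of 8 on both HPC arrays. The summed linear signal of these 8 markers, as a multiple of the 75th percentile, was 2.38 and 2.25 in iHPC 9F and 10F, 0.207 and 1.79 in HPC HB1 and HNG2, and 220.3 in NPC. Over all non-control spots, 58.9% to 65.6% passed that call per array. The RNA is from whole cultures, so fewer cells with a transcript and less of it per cell cannot be told apart.

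Pax6 stood between the other groups in the induced cells. Its level was -3.05 in iHPC 9F and -2.84 in iHPC 10F, -4.73 in HPC HB1 and -4.84 in HPC HNG2, and -0.99 in NPC. Both iHPC arrays lay below the NPC array and above both HPC arrays, and the 2 arrays of each pair differed little.

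Against the parental line, Pax6 was lower in iHPC by a log2 difference of -1.96 ± 0.25 (SE; 3.89-fold, limma adjusted p = 0.0438). It was the 1 Pax gene called of 5 tested, where 5.65% of all 19308 tested genes were called, 2.80% higher and 2.85% lower. Relative to fetal liver progenitors, Pax6 was higher in iHPC by 1.84 ± 0.20 (3.58-fold, adjusted p = 0.036), again the 1 of 5 called, against 5.43% of all genes, 3.55% higher and 1.88% lower. HPC were lower than NPC by -3.80 ± 0.25 (13.9-fold, adjusted p = 0.0125). On the log2 scale the iHPC mean lay 48.4% of the way from HPC to NPC. Beside this, the mesenchymal marker sum was highest in NPC, and of 10 hepatic markers 7 were higher and 1, Foxa2, lower in iHPC than in NPC. The summed signal of the 9 tested neural progenitor markers, in which bright markers weigh most, had another order than Pax6. It was 8.16 and 9.23 in iHPC 9F and 10F, 1.97 and 3.45 in HPC HB1 and HNG2, and 6.32 in NPC. The median log2 differences of these 9 markers had the order of Pax6. They were -0.36 for iHPC against NPC, 0.38 for iHPC against HPC and -0.73 for HPC against NPC. Fabp7 passed the filter only through the NPC array and Hes5 only through HPC. The part of these markers in the result was not tested. Both HPC arrays were scanned on days that no iHPC or NPC array shares, so in every comparison with HPC scan day and group cannot be told apart.

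Both calls involving iHPC were lost with a single iHPC array. With only iHPC 10F the Pax6 difference against NPC was -1.85 (adjusted p = 0.4) and with only iHPC 9F it was -2.07 (adjusted p = 0.355). Against HPC these values were 1.95 (adjusted p = 0.379) and 1.73 (adjusted p = 0.419). With a single iHPC array the fit called no gene at all in any of the 3 comparisons (limma; 1903 to 3889 genes had an unadjusted p under 0.05). The sizes thus moved little while the calls were lost. Both were also lost without the filter on dim probes (adjusted p = 0.0926 against NPC and 0.0741 against HPC), and that against NPC with median centring (adjusted p = 0.0504).

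Pax6 had 3 probes, and 2 of them gave the same order of groups. In the coordinates of the array design (mm7), the probe used above lies at chr2:105547907-105547966. A second one, spotted 10 times, spans chr2:105546221-105547093. The mean level of that second probe was -4.07 in iHPC 9F and -4.12 in iHPC 10F, -6.33 in HPC HB1 and -5.72 in HPC HNG2, and -2.43 in NPC. Its unflagged spots were all well above background on every array except HPC HB1, where none of 10 was.

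Tested singly among 27940 probes, the second Pax6 probe differed by -1.67 ± 0.36 for iHPC against NPC (adjusted p = 0.1), 1.93 ± 0.29 for iHPC against HPC (adjusted p = 0.059) and -3.60 ± 0.36 for HPC against NPC (adjusted p = 0.0187). All 3 signs were those of the first probe, but only the last passed the threshold of 0.05. The third Pax6 probe, at chr2:105534728-105535579 and 10641 bases from the second, was not well above background on any array. It read -7.71 and -7.19 in iHPC, -8.11 and -8.64 in HPC and -7.51 in NPC and gives no measured order of the arrays.

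Pax3, a factor of the dorsal neural tube, neural crest and muscle precursors, had the same order of groups with a wider spread. Its level was -2.25 in iHPC 9F and -2.40 in iHPC 10F, -3.95 in HPC HB1 and -5.32 in HPC HNG2, and -0.80 in NPC. No groups overlapped, but the 2 HPC lines were 2.57-fold apart.

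For Pax3 the difference of HPC against NPC was -3.84 ± 0.66 (14.3-fold, adjusted p = 0.0437), and with Pax6 this made 2 of 5 tested Pax genes called, both lower, against 15.7% of all genes called, 6.68% higher and 8.98% lower. The differences of iHPC against NPC, -1.53 ± 0.66 (adjusted p = 0.274), and of iHPC against HPC, 2.31 ± 0.54 (adjusted p = 0.105), did not pass. On the log2 scale the iHPC mean lay 60.2% of the way from HPC to NPC. The mesenchymal marker sum was also highest in NPC, but of the HPC pair it was HNG2, lower in Pax3, that had more of it. The neural progenitor marker sum, given for Pax6 above, was higher in both iHPC arrays than in NPC. By the median log2 difference of these markers, -0.36, iHPC lay below NPC. The part of these markers in the Pax3 result was not tested.

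The Pax3 calls depended on which arrays set the spread and on the processing. The call of HPC against NPC was lost in 6 of 13 alternatives. These include the fit without the filter on dim probes, with all arrays kept (limma adjusted p = 0.0641). Without an HPC array the iHPC difference from NPC, unchanged at -1.53, had an adjusted p of 0.0141. Against HPC it was 2.99 (adjusted p = 0.00769) without HB1 and 1.63 (adjusted p = 0.0144) without HNG2. Without either iHPC array, HPC against NPC kept its -3.84 with an adjusted p of 0.139.

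The main Pax3 probe, at chr1:78328329-78328388 in mm7, is spotted 10 times, which shows the precision of a single array. Each of the 10 passed the background call on every array. They ran from -2.38 to -2.16 in iHPC 9F and from -2.52 to -2.26 in iHPC 10F, from -4.11 to -3.79 in HPC HB1 and from -5.66 to -5.01 in HPC HNG2, and from -0.87 to -0.64 in NPC. The spots of HB1 and HNG2 did not overlap. Repeated spots carry the error within an array alone, not that between samples. A second Pax3 probe, 80647 bases away at chr1:78409036-78409095, was well above background in NPC alone (-5.17). Its differences had the signs of the first probe and none passed (-1.19 for iHPC against NPC, 1.80 for iHPC against HPC, -2.98 for HPC against NPC, adjusted p = 0.529, 0.238 and 0.117 in that order).

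**Figure D2:**
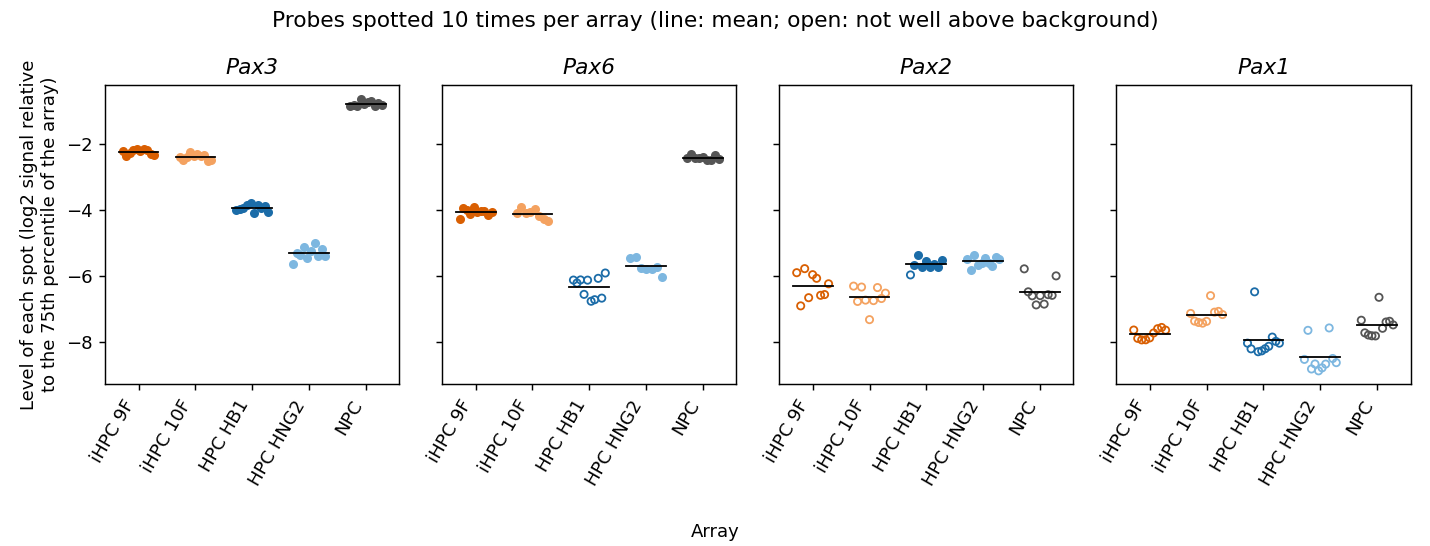
Levels of single spots (vertical axis, log2 signal relative to the 75th percentile of the array) for the 4 Pax probes spotted 10 times on each array (horizontal axis), with outlier-flagged spots left out, lines at the means and open symbols for spots not well above background. The Pax3 spots of HPC HB1 (-4.11 to -3.79) lie apart from those of HPC HNG2 (-5.66 to -5.01), Pax2 has filled symbols in the HPC pair alone, and Pax1 has none.

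Pax7, the close relative of Pax3, was near the limit of detection and showed no group pattern. Its level was -7.14 in iHPC 9F and -4.94 in iHPC 10F, neither well above background, -4.32 in HPC HB1, -7.30 in HPC HNG2, which was not well above background, and -4.79 in NPC. HB1 and NPC were the 2 arrays with a measured level. The further Pax7 probe, named so in its description alone, was not well above background on any array. It read -6.76 in HPC HB1 and -7.56 in NPC. The differences were -1.25 ± 1.69 for iHPC against NPC, -0.23 ± 1.38 for iHPC against HPC and -1.02 ± 1.69 for HPC against NPC (adjusted p = 0.724, 0.931 and 0.7 in that order). No bound is given for the first, because iHPC 10F read only 1.11-fold below NPC. Of 5 skeletal muscle markers, Myod1 and Ckm were well above background on HB1 alone, Des on NPC alone, Acta1 on both iHPC arrays and HNG2, where Pax7 was not, and Myog on no array. The summed signal of the 2 tested muscle markers, Acta1 and Des, was 0.049 and 0.066 in iHPC, 0.013 and 0.023 in HPC and 0.072 in NPC. Myod1 and Ckm, the markers found on HB1 alone, did not enter that sum, so it does not describe the muscle markers of HB1. The part of the muscle markers in the Pax7 values was not tested.

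Pax9, which acts in sclerotome, pharyngeal pouch, tooth and limb, was measured on every array without a consistent difference between groups. Its level was -2.56 in iHPC 9F and -2.33 in iHPC 10F, -2.53 in HPC HB1 and -4.42 in HPC HNG2, and -3.53 in NPC. The iHPC arrays and HB1 lay close together, and HNG2 was lowest, 3.70-fold below HB1. Its differences were 1.08 ± 0.89 for iHPC against NPC (adjusted p = 0.545), 1.03 ± 0.73 for iHPC against HPC (adjusted p = 0.427) and 0.05 ± 0.89 for HPC against NPC (adjusted p = 0.971).

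The direction of Pax9 between HPC and NPC turned with the HPC array that was kept, and with normexp (-0.19). Without HB1 it was -0.89 (adjusted p = 0.0462) and without HNG2 it was 0.998 (adjusted p = 0.0365). Against HPC, iHPC differed by 1.97 (adjusted p = 0.0143) without HB1 and by 0.08 (adjusted p = 0.861) without HNG2. Without either HPC array, the difference of iHPC from NPC, 1.08, had an adjusted p of 0.0318. The Pax9 probe lies at chr12:54640542-54640601 in mm7.

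Pax2, known from the kidney, the midbrain-hindbrain boundary and the optic stalk, was the member measured in HPC alone. Its level was -6.30 in iHPC 9F and -6.65 in iHPC 10F, -5.66 in HPC HB1 and -5.57 in HPC HNG2, and -6.49 in NPC. Of its unflagged spots, 8 of 9 were well above background in HB1 and 10 of 10 in HNG2, and 0 on the iHPC and NPC arrays. Pax2 differed by -0.86 ± 0.23 for iHPC against HPC (adjusted p = 0.124) and by 0.88 ± 0.28 for HPC against NPC (adjusted p = 0.118), neither past the threshold. No fold is given, because the dimmest signals well above background (-5.67 and -5.19 on the iHPC arrays, -5.59 on NPC) were on average at or above the HPC mean of Pax2, -5.61. With normexp background correction both signs turned, to 0.32 and -0.38, so no direction can be read.

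Pax1, Pax4, Pax5 and Pax8 were not well above background on any array with any of their 7 probes. Their levels ran from -8.96 to -6.74, and they were not tested. The 10 spots of one Pax1 probe gave 0 spots well above background on every array. Of 3 genes on the marker list for the B lineage, where Pax5 acts, Ptprc was well above background on both iHPC arrays and on no other. Ptprc is a gene of leukocytes in general, not of the B lineage alone. Cd79a was well above background on HPC HB1 and iHPC 9F only, and Cd79b on no array.

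**Figure D3:**
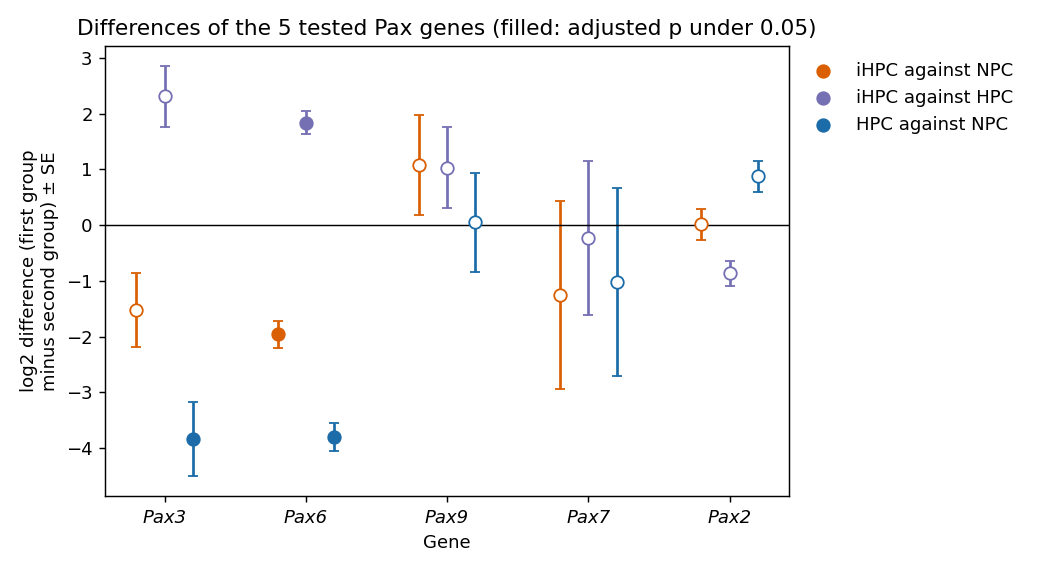
Log2 differences of the 5 tested Pax genes (vertical axis, first named group minus second; error bars, SE from the limma fit of all 5 arrays), filled where the adjusted p was under 0.05. Pax6 is filled in all 3 comparisons (-1.96, 1.84 and -3.80), Pax3 in HPC against NPC alone (-3.84), and the bars of Pax9 and Pax7 are wide.

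Over the 5 tested members the median log2 difference was -1.25 for iHPC against NPC, 1.03 for iHPC against HPC and -1.02 for HPC against NPC, beside 0.03, 0.05 and -0.03 over all genes. The first and the third are the values of Pax7, which was near the limit of detection. Pax7 passed the filter only through the NPC array, and Pax2 only through HPC. The filter thus favoured a Pax7 value below NPC, and these medians are not read as a result about the family. Without iHPC 9F the first was -0.16. Without HNG2 the second was 0.084 and the third 0.47, and without HB1 these were 1.89 and -2.51. Normexp background correction gave -0.24, 0.81 and -0.55. The 3 comparisons share arrays, so these medians are not independent of each other. In an exact permutation test (two-sided) of the 2 iHPC against the 2 HPC arrays, Pax2, Pax3 and Pax6 each gave p = 0.333, the smallest this design allows. Their arrays did not overlap between the groups, which was also so for 62.8% of all tested genes.

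The 2 iHPC arrays differed by small amounts in the measured members, though by more than most genes did. iHPC 10F minus iHPC 9F was -0.15 for Pax3, 0.21 for Pax6 and 0.23 for Pax9, where the median absolute difference of 16515 genes measured on both arrays was 0.13. The sizes were larger than for 56.2%, 69.8% and 73.0% of those genes, in that order. These are values of single arrays with no test. HB1 minus HNG2 was 1.36 for Pax3 and 1.89 for Pax9, larger than for 86.9% and 93.5% of 17140 genes, but 0.11 for Pax6 and -0.09 for Pax2. HPC HB1, HPC HNG2 and the other 3 arrays were scanned on 3 different days, so for the HPC pair line and scan day cannot be told apart. iHPC 10F and NPC shared a slide, and between these arrays Pax6 differed by -1.85, Pax3 by -1.60 and Pax9 by 1.20.

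Pax genes act in many tissues together with the sine oculis-related homeodomain factors Six2 to Six6, Eya coactivators and Dach corepressors, a network first worked out in the fly eye. Of 11 mouse genes of these families 9 were tested, and most were highest in NPC. In HPC against NPC 7 were called, 6 lower and 1 higher, with a median log2 difference of -4.73 over the 9. In iHPC against NPC 1 was called, lower (median -2.53), and in iHPC against HPC 1 was called, higher (median 0.87). Of all genes 15.7%, 5.65% and 5.43% were called in these comparisons, in that order, and the list was chosen with earlier results of these data known. Six2 and Six3 passed the filter only through the NPC array. The filter thus favoured values below NPC for them, so these counts and medians are not read as a result about the list. These counts depended on the setting. They ran from 0 to 7 in HPC against NPC, from 0 to 7 in iHPC against NPC and from 0 to 8 in iHPC against HPC. Without either iHPC array 0 were called in any comparison. Without HB1 or HNG2, 7 were called in iHPC against NPC, and 8 and 7 in iHPC against HPC.

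Eya1, which works with Pax3 in muscle precursors, was the 1 called in all 3 comparisons, as Pax6 was. It was at 0.05 and -0.09 in iHPC, -3.23 and -3.86 in HPC and 2.95 in NPC. The iHPC arrays lay between the other groups without overlap.

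The differences of Eya1 were -2.97 ± 0.37 for iHPC against NPC (7.83-fold, adjusted p = 0.0427), 3.52 ± 0.30 for iHPC against HPC (11.5-fold, adjusted p = 0.0267) and -6.49 ± 0.37 for HPC against NPC (89.9-fold, adjusted p = 0.0112). All 3 calls were lost when either iHPC array was left out, with limma adjusted p = 0.293 and 0.292 for iHPC against NPC, 0.258 in both cases for iHPC against HPC and 0.0679 in both for HPC against NPC. Without the filter on dim probes the call of iHPC against NPC was lost as well (limma adjusted p = 0.0729). The mesenchymal marker sum was highest in the same array as Eya1, and its part was not tested.

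Dach1, a corepressor, was at -2.70 and -3.29 in iHPC, -7.98 (HB1, not well above background) and -6.07 in HPC and -0.40 in NPC. It was lower in HPC than in NPC (-6.63 ± 0.94, adjusted p = 0.0309), a size that rests in part on the HB1 value. Six2, known from kidney progenitors, was well above background in NPC alone and at least 43.9-fold lower in HPC (adjusted p = 0.0357). Six3 was at least 11.3-fold lower in HPC than in NPC (adjusted p = 0.0488). Six4 and Six5, named to complete the count after their values were seen, were also lower there, by log2 differences of -4.73 and -2.06. Six4, too, was not well above background on HB1. Eya2 ran the other way. It was at -3.35 and -3.88 in iHPC, -1.04 and -0.06 in HPC and -7.43, not well above background, in NPC. HPC exceeded NPC at least 33.04-fold (adjusted p = 0.0143). Eya3 and Eya4 were called in no comparison.

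**Figure D4:**
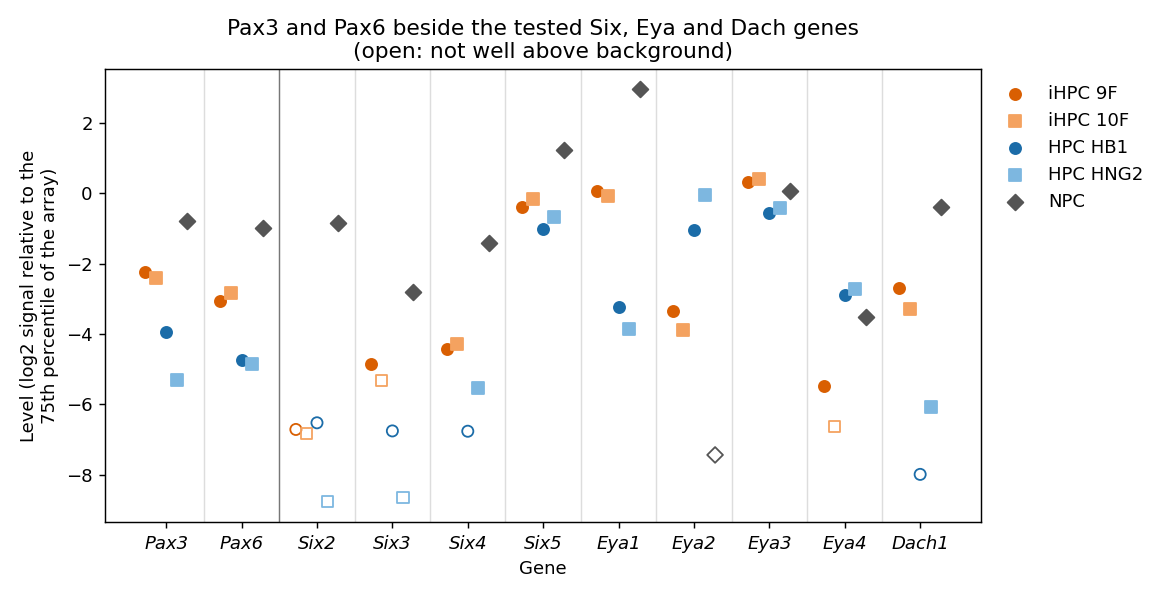
Levels of Pax3 and Pax6 and of the 9 tested genes of Six2 to Six6, Eya1 to Eya4, Dach1 and Dach2 on the 5 arrays (vertical axis, log2 signal relative to the 75th percentile of the array), with open symbols for values not well above background. In Eya1, as in Pax3 and Pax6, the iHPC arrays lie above HPC and below NPC, and Eya2 is highest in HPC (-1.04 and -0.06) and lowest in NPC (-7.43). Heights do not rank the genes.

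Another list held genes of proteins that Pax factors are known to bind, or that act beside them. Of 9 tested, 1 was called in each of the 3 comparisons, and each was lower in the group named first. Of all genes, 5.65% were called in iHPC against NPC, 5.43% in iHPC against HPC and 15.7% in HPC against NPC. Counts this small are not read as a result about the list. Tle2, a Groucho-type corepressor gene, was lower in iHPC than in NPC by -2.76 (adjusted p = 0.0434), and Tle4, of the same family, was lower in iHPC than in HPC by -2.15 (adjusted p = 0.0441). Mitf, a melanocyte and eye factor whose gene Pax3 regulates, was lower in HPC than in NPC by -4.10 (adjusted p = 0.0293). Its tested probe was not well above background in HPC, though another Mitf probe was on HB1. Paxbp1 and Aes were not analysed here.

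Over all the lists of Pax partners and tissues, 46 calls of named genes were rerun under the alternatives. Each of the 46 was lost when either iHPC array was left out, 22 without the filter on dim probes, 23 with only the groups compared and 9 with normexp, and 0 turned direction.

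Genes of the dorsal and anterior neural tube, the setting of Pax3, Pax6 and Pax7, were 20 tested of 26. In iHPC against NPC 2 were called, both lower, and in iHPC against HPC 4 were called, all higher, where 2.85% of all genes were lower and 3.55% higher. In HPC against NPC 5 were lower and 1 higher, where 8.98% and 6.68% of all genes were. The neural stem cell factor gene Sox2 was at -3.57 and -4.41 in iHPC, was not well above background in HPC and was at 0.86 in NPC, so iHPC were lower than NPC by -4.86 (adjusted p = 0.0338) and at least 4.97-fold higher than HPC (adjusted p = 0.0301).

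Zic1, a dorsal neural tube factor gene, was at 1.74 and 1.71 in iHPC and 3.70 in NPC, and was not well above background in HPC, iHPC exceeding HPC at least 262-fold (adjusted p = 0.0157). Slc1a3, a glutamate transporter gene of radial glia, was at least 38.02-fold higher in iHPC than in HPC (adjusted p = 0.0157). Lhx2, a forebrain and eye factor gene, was higher in iHPC than in HPC by 5.47 (adjusted p = 0.0204), and Meis2 was lower in iHPC than in NPC by -2.21 (adjusted p = 0.0487). The Lhx2 size rests in part on HPC HB1, where Lhx2 was not well above background. The 1 gene above NPC in HPC was Eomes, by at least 5.08-fold (adjusted p = 0.0379). The median differences of the 20 genes were -1.24 for iHPC against NPC, 0.56 for iHPC against HPC and -1.38 for HPC against NPC. Fabp7, Dbx1, Otx1 and Zic2 passed the filter only through the NPC array, and Eomes and Hes5 only through HPC. The filter thus favoured values below NPC for the former and above NPC for the latter. These medians and the counts of this list are not read as a result about it.

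Genes of the sclerotome and cartilage, the setting of Pax1 and Pax9, were called in HPC against NPC for 6 of 10 tested, all lower, where 8.98% of all genes were lower. In iHPC against NPC 2 were called, both lower (2.85% of all genes), and in iHPC against HPC 1 was called, higher (3.55% of all genes). Meox2, among the lower genes in both comparisons with NPC, passed the filter only through the NPC array, which favoured values below NPC. Scx, a tendon factor gene, was lower in iHPC than in NPC by -7.12 (adjusted p = 0.0315) and lower in HPC than in NPC by -5.98 (adjusted p = 0.0225). Tbx18, a factor gene of somites and mesenchyme, was at least 8.44-fold higher in iHPC than in HPC (adjusted p = 0.0183) and at least 42.05-fold lower in HPC than in NPC (adjusted p = 0.00986). Twist1, also among the mesenchymal markers, was lower in HPC than in NPC by -8.25 (adjusted p = 0.0385). That size rests in part on HPC HB1, where Twist1 was not well above background. Pax9 itself was called in none of these comparisons, and the mesenchymal marker sum given above was highest in NPC, its part not tested.

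Genes of the midbrain-hindbrain boundary and kidney, the setting of Pax2, Pax5 and Pax8, moved both ways. Of 12 tested, 1 was higher and 1 lower in iHPC than in NPC, 1 higher and 2 lower in iHPC than in HPC, and 2 were called in HPC against NPC, both higher. The shares called of all genes were 5.65%, 5.43% and 15.7% in these comparisons, so the last count is near the share over all genes. Cdh16, a kidney and thyroid cadherin gene, was at 3.17 and 2.00 in iHPC, -5.85 and -4.80 in HPC, of which HNG2 was well above background, and -7.52 in NPC. It was at least 290-fold higher in iHPC than in NPC (adjusted p = 0.0285) and higher than in HPC by 7.91 (adjusted p = 0.0234), while Pax2 and Pax8 were not well above background in iHPC.

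En2, a midbrain-hindbrain factor gene, was well above background in HPC alone, as Pax2 was, with iHPC at least 2.98-fold lower than HPC (adjusted p = 0.0397) and HPC above NPC by at least 3.34-fold (adjusted p = 0.0283). With normexp both En2 calls were lost, at log2 differences of -0.27 and 0.24 (adjusted p = 0.337 and 0.456). Fgf8, the signal of that boundary, was lower in iHPC than in NPC by -2.35 (adjusted p = 0.0453) and than in HPC by -2.61 (adjusted p = 0.0302). Of the 7 thyroid genes set beside Pax8, 3 were tested. That is too few to set against the shares of all genes called (5.65%, 5.43% and 15.7% in the comparisons as ordered above). The 1 called was Hhex, which also acts in liver development. It was higher in iHPC than in NPC by 3.01 (adjusted p = 0.0418), lower in iHPC than in HPC by -2.28 (adjusted p = 0.0473) and higher in HPC than in NPC by 5.29 (adjusted p = 0.0129).

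The remaining settings gave few calls among few tested genes. Of all genes, 5.65% were called in iHPC against NPC, 5.43% in iHPC against HPC and 15.7% in HPC against NPC. Counts this small are not read as results about the settings. Of 9 tested muscle and neural crest genes, 0 were called in iHPC against NPC or HPC by limma (2 had an unadjusted p under 0.05 in each), and 1 was lower in HPC than in NPC, the neural crest factor gene Tfap2a (-5.71, adjusted p = 0.0255). Of 8 tested islet genes, Gcg, which encodes glucagon, was at least 3.05-fold higher in iHPC than in HPC (adjusted p = 0.0336) and the factor gene Isl1 was at least 22.6-fold lower in HPC than in NPC (adjusted p = 0.046). Of 5 tested B cell genes, 1 was called, the adaptor gene Blnk, at least 57.5-fold higher in iHPC than in HPC (adjusted p = 0.0266) and at least 6.19-fold lower in HPC than in NPC (adjusted p = 0.04999). The Blnk call of HPC against NPC was lost in 7 of 11 alternatives (adjusted p up to 0.12), and with normexp the difference was -1.37. Of 6 tested eye and lens genes, Mab21l2 was at least 3.37-fold lower in iHPC than in NPC (adjusted p = 0.0342) and Prox1, an early hepatoblast factor as well as a lens one, was above NPC in HPC by at least 21.8-fold (adjusted p = 0.0354).

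The genes most like each member over the 5 arrays were found by the root mean square distance between centred levels, among 15054 genes well above background on all arrays. For Pax3 they were C8g (distance 0.204), Ebf4 (0.240) and Adgrg1 (0.269). For Pax6 they were Apol9b (0.168), Fbxl2 (0.191) and Gsto2 (0.198). Pax3 and Pax6 were 0.472 apart, which placed Pax6 at rank 52 for Pax3, and Pax3 at rank 119 for Pax6. For Pax9 they were 4930473A06Rik (0.115), Irf7 (0.124) and Kdf1 (0.146), and Pax9 was 1.44 from Pax3 and 1.53 from Pax6.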

How the data were processed

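Per the labels' protocols, 0.25 µg of RNA per sample was labelled with Cy3. The deposited values are spot intensity readings of 1-colour Agilent arrays. Per the file headers, Feature Extraction 10.7.3.1 subtracted background, detrended and replaced values near background by surrogates, with no normalization between arrays. The deposited series matrix equalled the processed signal on 100% of spots.

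The log2 of the processed signal minus its 75th percentile per array (590.3 to 1074) was computed, without controls and flagged spots, and spots of a probe were averaged. A probe was well above background where over 0.5 of its unflagged spots were, and a gene where any of its probes was. Probes passed when every array of at least 1 group had them well above background, and a gene was its brightest probe (27940 probes, 19308 genes). Symbols follow RefSeq GRCm38.p6 where matched (22951 probes by accession, 6659 by symbol). limma 3.58.1 in R 4.3.3 fitted all 5 arrays, with 3 groups, 2 residual degrees of freedom, and two-sided p-values with Benjamini-Hochberg adjustment, called under 0.05. A gene not well above background in a group has only a bound there, written "at least": the mean of the bright group over an average, across the arrays of the other, of the dimmest signal called well above background, or the gene's own signal if higher. Named genes were all Pax genes, 6 markers, the 3 most alike genes per member and, per list and comparison, up to 4 called members in each direction, of which the text gives most. Alternatives were other normalizations, background corrections, filters, gene summaries, models and left-out arrays. Some members of the lists are not reported here and were left out of the lists' counts. The fit was tested on simulated data. Members and lists were chosen with earlier results of these data known. Arrays were scanned on 3 days. Other neural and stem cell data of the study were not used here. The small number of arrays limits the precision. Figures used matplotlib 3.10.9.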

Additional observations from a re-analysis of the deposited data

How the results depend on the processing

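The 3 counts of all genes called (1090 for iHPC against NPC, 1048 for iHPC against HPC, 3024 for HPC against NPC) and of Pax genes called (1, 1 and 2) depended on the setting. Without a filter on dim probes the counts of genes were 305, 460 and 1643 and of Pax genes 0, 0 and 1. When all 5 arrays had to be well above background, 492 and 617 genes were called in the iHPC comparisons. Normexp background correction called 2109 genes and 2 Pax genes in iHPC against HPC, and 4745 genes in HPC against NPC. Median centring called 0 Pax genes in iHPC against NPC (Pax6 adjusted p = 0.0504), and the mean of a gene's probes called 1 in HPC against NPC (Pax3 adjusted p = 0.0539). With only the groups compared, or with scan day as a block, 6754 genes and 3 Pax genes were called in iHPC against NPC, and with only the groups compared 0 genes and 0 Pax genes in HPC against NPC (3889 at an unadjusted p under 0.05). By construction the first of these spreads comes from the iHPC pair and the second from the HPC pair, whose median SDs were 0.105 and 0.374.

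Leaving out 1 array gave 0 to 6754 genes and 0 to 3 Pax genes in iHPC against NPC, 0 to 6987 and 0 to 3 in iHPC against HPC, and 0 to 9762 and 0 to 3 in HPC against NPC. Each 0 came from leaving out an iHPC array (unadjusted p under 0.05 for 1903 to 3889 genes by limma), and a lone array was assumed to vary like the others. By the software's laxer call of a positive and significant signal, 5 Pax genes were above background on every iHPC array, not 3.

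Direction turned for Pax2 with normexp (-0.060, 0.32 and -0.38 in the 3 comparisons) and without iHPC replicate 1 (against NPC, where leaving out 1 array gave -0.16 to 0.19). It turned for Pax7 in iHPC against HPC with normexp (0.31), without HPC replicate 1 (1.26) and without iHPC replicate 1 (0.87), with a range of -1.72 to 1.26 when 1 array was left out, and in HPC against NPC without HPC replicate 2 (0.47, range -2.51 to 0.47). For Pax9 in HPC against NPC it turned with normexp (-0.19) and without HPC replicate 1 (-0.89, range -0.89 to 0.998). Pax3 and Pax6 kept their direction in all 3 comparisons under every alternative run, from -2.07 to -1.49 for Pax6 in iHPC against NPC, with calls lost where named here or in the report. The cause of these changes was not tested. The second probes of Pax3 and Pax6 were an alternative chosen after seeing the data. Normexp moved the median of all genes by 0.13 and -0.17, and median centring by -0.24 and 0.28, in iHPC against HPC and in HPC against NPC. No paired analysis was possible because replicate numbers follow the accession order and the arrays of a group are different lines or factor sets. Slide as a block could not be fitted. The dimmest level well above background was -6.62 to -5.19 by array, so lower Pax levels were not measurable.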
